A study of Mus musculus with 12 samples.

Results

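Transcription in the terminal ileum was read on 6 of the 12 MouseWG-6 v2.0 bead arrays of a study of newborn mice, 3 from hyperoxia-exposed pups and 3 from normoxia pups. These 6 were chosen by the tissue given in the sample labels, and all genes with a detectable ileal signal are described, 11178 of the 19057 genes that the probes name. The hyperoxia pups were C57BL/6 mice (C57Bl/6 J in the study's methods) that breathed 85% oxygen from day 3 to day 14 of life, a model of the oxygen injury of preterm birth, and the normoxia pups were mice of the same strain that breathed 21% oxygen over the same days. Both were 14 days old when the ileum was taken. According to the study's methods, pooled litters rather than single pups were assigned to an exposure and dams were exchanged between them each day, so an effect of litter cannot be told apart from that of oxygen. No source used here says whether the 3 arrays of a group came from separate animals. The p-values therefore describe a spread among arrays, part of which may be technical. That spread was estimated over all 12 arrays, lung included, and not over the ileum arrays alone.

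The terminal ileum takes up bile acids from the gut lumen and is the part of the small intestine that meets the densest microbial community. Its crypts hold Paneth cells, which secrete lysozyme, defensins and other antimicrobial proteins. In suckling mice the ileal enterocytes swallow milk proteins by endocytosis and digest them in large lysosomes, and around weaning they are replaced by adult-type enterocytes that carry sucrase and trehalase on the brush border. Antimicrobial defence, lymphocytes and antigen presentation build up over the same period.

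Each array measured RNA in 1 colour and detected between 19292 and 20839 of 45281 probes. The 3 hyperoxia arrays had a 95th percentile signal of 11.8 to 13.7 times the array's background, against 16.2 to 16.6 times on the 3 normoxia arrays, so this difference in signal cannot be told apart from the exposure. Hyperoxia replicate 3 stood apart from all other ileum arrays. Its correlation with the other hyperoxia arrays over tested probes was 0.945 and 0.955, whereas the 3 normoxia arrays correlated at 0.972 to 0.984 with each other, and a count of 3 or more genes of a list is given again below where leaving out this or another array moved it by over 1.5 times. Counts of 1 or 2 genes often changed when 1 array was left out. The source name of the 3 normoxia ileum arrays says lung, but of 9 lung markers only 1, Ager, was detected often enough to be tested in the ileum, while 8 of 10 markers of ileal epithelium were. The mean log2 signal of those 8 was 10.45 to 10.84 on hyperoxia arrays and 11.30 to 11.47 on normoxia arrays. In whole tissue, fewer cells of a type and less RNA per cell cannot be told apart.

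Of 11178 genes tested, 2995 (26.8%) differed between hyperoxia and normoxia at an adjusted p under 0.05 from limma, 1421 of them higher (12.7%) and 1574 lower (14.1%). The median log2 change over all tested genes was -0.03, where a log2 change of 1 is 2-fold. Changes of at least 2-fold were measured for 939 genes (8.40%), 424 higher (3.79%) and 515 lower (4.61%). Of these, 30 rose and 51 fell at least 4-fold, and 3 rose and 8 fell at least 8-fold. The 3 hyperoxia arrays did not overlap with the 3 normoxia arrays in 4482 genes (40.1%), lying above them in 2129 and below them in 2353. The typical standard error of a change was 0.21 (median over genes), and hyperoxia arrays varied more among themselves than normoxia arrays did, with a median SD of 0.29 against 0.19. Without hyperoxia replicate 3, 1015 genes were higher (9.08%) and 1089 lower (9.74%). Without normoxia replicate 2 or 3, 1952 or 1435 genes were called, and with the 6 ileum arrays fitted alone 1465.

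**Figure D1:**
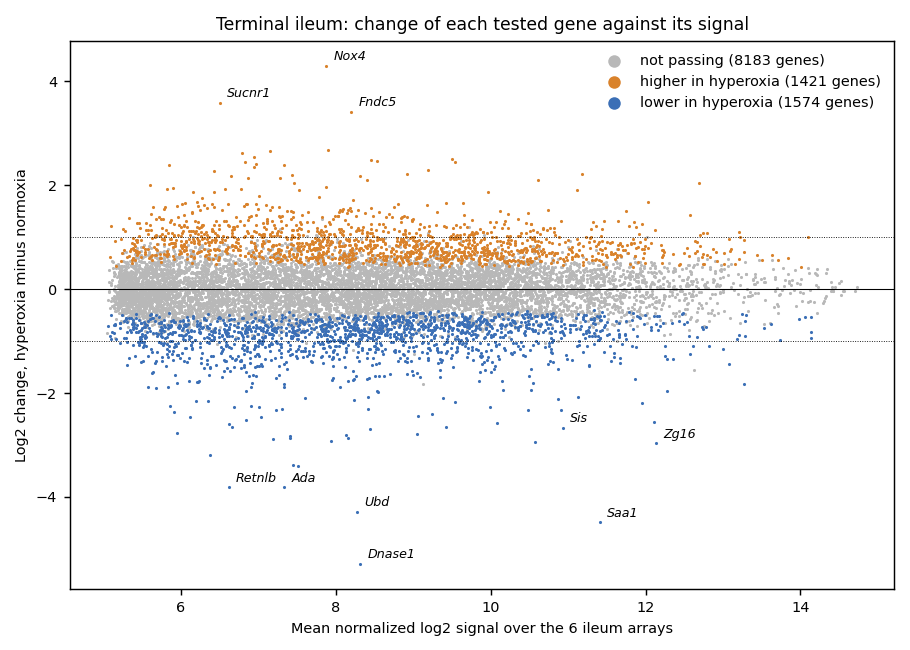
Each point is 1 of 11178 genes tested in the terminal ileum, placed by its mean normalized log2 signal over the 6 arrays and by its log2 change, hyperoxia minus normoxia. The 1421 genes that rose and the 1574 that fell are coloured, dotted lines mark 2-fold changes, and the largest falls extended further than the largest rises.

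The largest rise among genes detected on all 6 arrays was that of Nox4, an oxidase that produces hydrogen peroxide from NADPH without needing cytosolic activators. Its normalized log2 signal was 9.68, 9.95 and 10.45 on the 3 hyperoxia arrays and 5.51, 5.81 and 5.86 on the 3 normoxia arrays, a change of 4.30 (standard error 0.24, adjusted p = 1.87e-07). Every hyperoxia value lay far above every normoxia value. The oxidase of the epithelial surface moved the other way. Duox2, the dual oxidase that releases hydrogen peroxide into the gut lumen, was detected on none of the hyperoxia arrays and on all 3 normoxia arrays, and its level in hyperoxia was lower by at least 3.64-fold (adjusted p = 2.46e-07). Duoxa2, the factor that carries Duox2 to the cell surface, had 5.91, 6.12 and 5.91 in hyperoxia and 9.01, 9.17 and 8.34 in normoxia, with no overlap, and fell by 2.86 (standard error 0.22, adjusted p = 2.51e-06). Among 9 measured genes of NADPH oxidases and other hydrogen peroxide sources, 3 rose and 6 fell, against 26.8% called of all tested genes. This list, like all 49 described here, was chosen with earlier results of these data known, so its share is not independent evidence. Duox2 also entered the test only through the normoxia arrays, where it was higher. Cyba, the membrane subunit shared by several oxidases, fell by 1.21, the phagocyte oxidase components Rac2 and Ncf4 had log2 changes of -0.98 and -0.74, and xanthine dehydrogenase, Xdh, fell by 0.66. The other rises were those of Hao2, a peroxisomal hydroxyacid oxidase, by 1.38, and of monoamine oxidase B, Maob, by 1.02. Without normoxia replicate 2, and likewise without replicate 3, 3 genes of the list fell. Nox1 and the phagocyte catalytic subunit Cybb were listed but not detected often enough to be tested.

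Antioxidant enzymes did not move as a group. Of 14 measured, 1 rose, 3 fell and 10 did not pass, with a median change of -0.19, against 12.7% higher and 14.1% lower over all tested genes. Without hyperoxia replicate 3 the median turned to 0.21 with 2 genes higher, and 5 or 6 genes fell without hyperoxia replicate 1 or 2. Gpx2, the glutathione peroxidase of the gut epithelium, had 11.04, 11.36 and 10.59 in hyperoxia and 13.06, 12.72 and 12.41 in normoxia and fell by 1.74 (standard error 0.29, adjusted p = 0.0014). The extracellular superoxide dismutase Sod3 fell by 1.02, and Sod1, the cytosolic one, fell by 1.28 on its brighter probe, while its other probe gave 0.67 (adjusted p = 0.0832) and did not pass. Gpx8, a peroxidase of the endoplasmic reticulum, rose by 1.26, with 11.22, 11.40 and 10.86 in hyperoxia against 9.87, 10.11 and 9.71 in normoxia. Catalase, Cat, did not pass the test and its arrays overlapped. 

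Targets of NRF2, the transcription factor that answers oxidants, were split. Of 17 measured, 6 rose, 3 fell and 8 did not pass, with a median of -0.09, against 12.7% higher and 14.1% lower over all tested genes. Without hyperoxia replicate 3, 5 rose and 2 fell, and 3 rose without hyperoxia replicate 2. The largest rises were those of alpha-class glutathione transferases. Gsta3 had 10.53, 10.99 and 11.18 in hyperoxia and 9.11, 8.83 and 9.16 in normoxia and rose by 1.87 (standard error 0.29, adjusted p = 0.000933), and Gsta2 rose by 1.29. Gsta1 rose by 1.40 on its brightest probe, while its other tested probes gave -0.071 and 0.0032 and did not pass, and Gsta4 did not pass either. Malic enzyme, Me1, which supplies NADPH, rose by 0.83, haem oxygenase 1, Hmox1, by 1.00 and the glutathione synthesis subunit Gclm by 0.55. The arrays of Hmox1 overlapped, and its call was lost without hyperoxia replicate 2 or 3 or normoxia replicate 1 or 2. The call of Gclm was lost without any 1 of the ileum arrays except hyperoxia replicate 3. In the other direction, Gstp1, a pi-class transferase, had 10.60, 10.42 and 9.26 in hyperoxia and 11.50, 11.65 and 11.76 in normoxia and fell by 1.54 (standard error 0.28, adjusted p = 0.00238), and Gstm1 of the mu class fell by 0.91. The cystine transporter Slc7a11 was called lower (adjusted p = 0.00414) on a probe detected on none of the hyperoxia arrays. Another of its probes was detected in hyperoxia, and its fall is given no size.

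The letters TGACNNNGC, the core to which NRF2 and its partners bind, were searched on both strands in the 250 bases before and 50 bases after each start site annotated by RefSeq on GRCm38.p6. They were found in 13.99% of 27025 genes with a promoter, and in 5 of the 15 tested NRF2 targets that had one. Gsta3 and Me1, which both rose, hold 1 match each and are shown because they have the letters in that window, with the match in capitals.
Gsta3, chr1:21240335-21240634, plus strand: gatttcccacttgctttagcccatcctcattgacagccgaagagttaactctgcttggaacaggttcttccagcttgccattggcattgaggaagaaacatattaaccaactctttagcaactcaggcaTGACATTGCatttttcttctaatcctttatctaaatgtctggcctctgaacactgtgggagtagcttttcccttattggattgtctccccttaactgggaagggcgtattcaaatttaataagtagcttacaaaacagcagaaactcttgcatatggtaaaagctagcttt
Me1, chr9:86695865-86696164, minus strand: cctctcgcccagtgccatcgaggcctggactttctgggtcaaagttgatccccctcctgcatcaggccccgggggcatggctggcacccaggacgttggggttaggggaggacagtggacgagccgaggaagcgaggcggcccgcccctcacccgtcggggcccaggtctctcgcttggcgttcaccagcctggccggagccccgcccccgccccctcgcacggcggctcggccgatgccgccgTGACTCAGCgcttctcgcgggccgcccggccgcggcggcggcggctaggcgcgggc
Of the NRF2 targets with a promoter, 3 of the 5 that rose and none of the 3 that fell held these letters. Over all tested genes the share was 16.57%, with 16.38% of those that rose and 14.01% of those that fell. A match is a description of the sequence and not evidence of binding.

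Most measured enterocyte genes of the suckling stage rose, and most of those of the adult stage fell. Of 17 measured suckling-stage genes, 10 rose, 1 fell and 6 did not pass, with a median change of 0.56, against 12.7% higher and a median of -0.03 over all tested genes. Without hyperoxia replicate 3, 8 rose and 1 fell. Most of those that rose serve endocytosis and the lysosome. Mcoln3, a cation channel of endosomes and lysosomes, had 11.76, 11.93 and 12.51 in hyperoxia and 10.07, 10.00 and 10.42 in normoxia and rose by 1.91 (standard error 0.22, adjusted p = 7.57e-05). Lrp2, the endocytic receptor megalin, had 6.53, 6.93 and 7.06 in hyperoxia and 5.19, 5.33 and 5.10 in normoxia and rose by 1.64 (standard error 0.28, adjusted p = 0.00155), although only 1 of the normoxia arrays detected it. The lysosomal protease Ctsl rose by 1.31, the lysosomal membrane protein Lamp2 by 1.09, the lysosomal beta-galactosidase Glb1 by 0.90 and the endocytic adaptor Dab2 by 0.65. Cubn, cubilin, the brush border receptor that works with megalin, rose by 0.85, with 10.24, 10.45 and 11.01 in hyperoxia against 9.69, 9.55 and 9.91 in normoxia. Of the urea cycle enzymes that suckling enterocytes use to make arginine, Cps1 rose by 1.08 and Otc by 1.11, with the hyperoxia arrays above all normoxia arrays for each. Arg2, an arginase on the same list, was detected on none of the hyperoxia arrays and was at least 1.27-fold lower. Lactase, Lct, the neonatal Fc receptor Fcgrt and argininosuccinate synthase, Ass1, which also belong to the stage, did not pass the test.

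Of 8 measured adult-stage genes, 6 fell, 1 rose and 1 did not pass, against 14.1% lower and 12.7% higher over all tested genes. Arg2 stands on this list as well and is 1 of the 6. Lyz1, the Paneth cell lysozyme described below, is another of the 6, although Paneth cells are not enterocytes. The median change of the 8 was -0.95, or -0.82 with a gene not detected in 1 group set at its bound. Sis, sucrase-isomaltase, had 8.82, 9.39 and 10.59 in hyperoxia and 12.63, 12.46 and 11.72 in normoxia and fell by 2.67 (standard error 0.35, adjusted p = 0.000227). Treh, trehalase, had 6.12, 5.67 and 5.49 in hyperoxia and 9.44, 9.14 and 8.85 in normoxia and fell by 3.38 (standard error 0.19, adjusted p = 1.87e-07). Krt20, a keratin of mature villus cells, fell by 2.08 (standard error 0.18, adjusted p = 7.64e-06) and the dipeptidase Cndp1 fell by 0.71. In all of these the hyperoxia arrays lay below every normoxia array. The sodium-glucose family member Slc5a9 was the exception and rose by 0.44, a call that was lost without hyperoxia replicate 3.

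**Figure D2:**
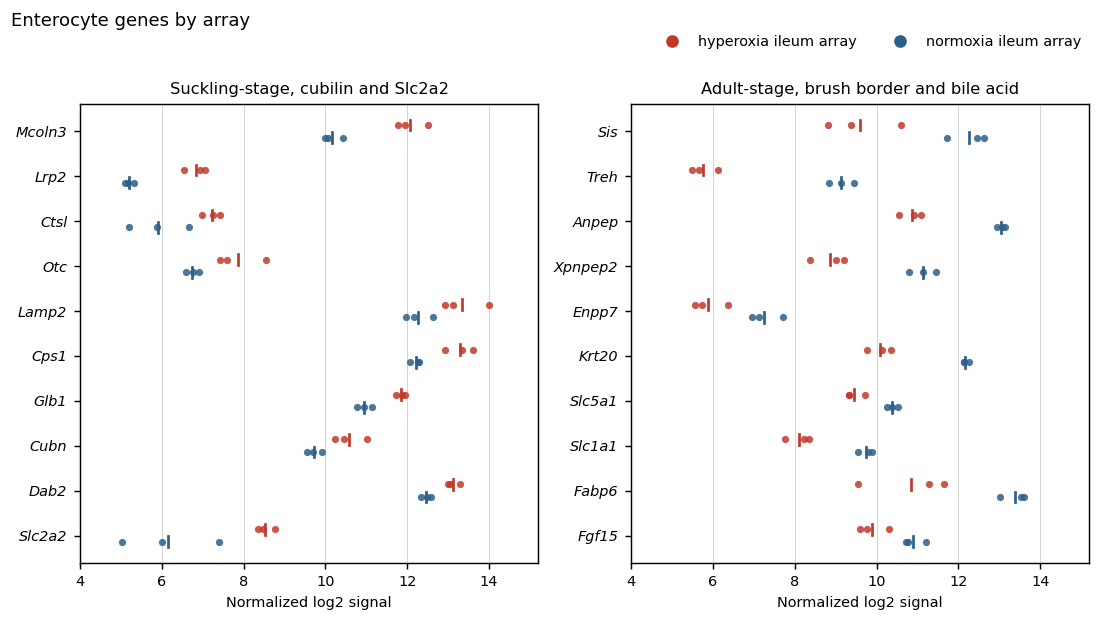
Normalized log2 signal of enterocyte genes on each of the 3 hyperoxia and 3 normoxia ileum arrays, with a bar at each group's mean. The genes of the left panel lay higher on the hyperoxia arrays, with Mcoln3 higher by 1.91, and those of the right panel lay lower, where Treh fell by 3.38.

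Of 15 measured brush border genes, Sis and Treh included, 7 fell, 1 rose and 7 did not pass, among the last the peptidases Dpp4, Mep1a, Enpep and Ace. Among all tested genes 14.1% were lower and 12.7% higher. Anpep, aminopeptidase N, had 10.55, 10.93 and 11.09 in hyperoxia and 12.94, 13.13 and 13.07 in normoxia and fell by 2.19 (standard error 0.27, adjusted p = 0.000163). Xpnpep2, aminopeptidase P, fell by 2.27, and the sphingomyelin-degrading enzyme Enpp7 fell by 1.38. The peptidase Naaladl1 fell by 0.76 and the meprin subunit Mep1b fell by 0.79. Nutrient transporters were divided, with 3 of 14 higher, 3 lower and 8 not passing, and 5 were lower without hyperoxia replicate 3. Slc5a1, the apical sodium-glucose cotransporter, fell by 0.93, the glutamate transporter Slc1a1 fell by 1.63 and the basolateral amino acid transporter Slc7a7 fell by 0.72. Slc2a2, the facilitative glucose transporter, had 8.36, 8.77 and 8.47 in hyperoxia and 5.04, 6.00 and 7.40 in normoxia and rose by 2.39 (standard error 0.40, adjusted p = 0.00144). The normoxia values of Slc2a2 spread widely, but none reached a hyperoxia value. The thiamine transporter Slc19a3 was at least 1.78-fold higher in hyperoxia and was detected on none of the normoxia arrays.

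Of 7 measured genes of ileal bile acid handling, 5 fell, 1 rose and 1 did not pass, with a median of -0.74, and 3 fell without hyperoxia replicate 3 or without normoxia replicate 2 or 3. Among all tested genes 14.1% were lower and 12.7% higher. Fabp6, the ileal bile acid binding protein, had 11.28, 11.66 and 9.54 in hyperoxia and 13.01, 13.61 and 13.54 in normoxia and fell by 2.56 (standard error 0.41, adjusted p = 0.00115). Replicate 3 was the lowest of the hyperoxia arrays, and the other hyperoxia arrays also lay below all normoxia arrays. Slc51b, a subunit of the basolateral bile acid exporter, had 12.11, 12.38 and 11.37 in hyperoxia and 13.24, 13.31 and 13.04 in normoxia and fell by 1.25, while its partner Slc51a fell by 0.48. Fgf15, the hormone by which the ileum tells the liver to make less bile acid, had 9.59, 9.77 and 10.29 in hyperoxia and 10.78, 10.72 and 11.20 in normoxia and fell by 1.01 (standard error 0.21, adjusted p = 0.00513). Abcc3, another basolateral exporter, fell by 0.74, and Abcc2, the apical exporter of conjugates, rose by 1.18, with 10.98, 11.45 and 11.79 in hyperoxia against 9.76, 10.24 and 10.69 in normoxia. The bile acid receptor Nr1h4 did not pass the test, and Slc10a2, the apical uptake transporter, was not detected on any ileum array. Of 17 measured genes of lipid absorption, 2 rose, 4 fell and 11 did not pass, and 2 fell without normoxia replicate 3. Apob, the scaffold of chylomicrons, rose by 1.43 and Sar1b, which moves them out of the endoplasmic reticulum, by 0.64, whereas the acyltransferases Mogat2 and Dgat1 had log2 changes of -0.80 and -0.80 and colipase, Clps, fell by 1.44.

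Most of the Paneth cell genes measured were lower. Of 14 measured Paneth cell genes, none rose, 9 fell and 5 did not pass, against 14.1% lower over all tested genes, with a median of -1.20, and 9 fell without hyperoxia replicate 3. The study names several of these for the same arrays, so their direction is not independent evidence. Lyz1, the Paneth cell lysozyme, had 13.47, 13.99 and 13.54 in hyperoxia and 14.61, 14.61 and 14.59 in normoxia on its brightest probe, a fall of 0.94 (standard error 0.17, adjusted p = 0.0024). Its 3 tested probes gave changes of -0.94, -1.39 and -2.02. Pla2g2a, a gene of the phospholipase family, had 6.87, 6.87 and 6.46 in hyperoxia and 9.92, 9.53 and 9.35 in normoxia and fell by 2.87 (standard error 0.17, adjusted p = 3.31e-07). The lipase Pnliprp2 fell by 2.41, matrilysin, Mmp7, which activates defensins, fell by 1.46, the lectin Itln1 fell by 1.10 and the ribonuclease Ang4 fell by 1.47. Ang4 had 11.48, 10.71 and 9.41 in hyperoxia and 11.88, 12.14 and 11.98 in normoxia, so that replicate 3 was again the lowest. Among the alpha-defensins, Defa21 had 9.86, 9.15 and 8.97 in hyperoxia and 11.35, 11.69 and 11.92 in normoxia and fell by 2.33 (standard error 0.23, adjusted p = 2.32e-05), and Defa26 fell by 1.83. Defa3 had a change of 0.40 (adjusted p = 0.0514) and did not pass. Alpha-defensin genes are near-identical copies, and probes of 1 can read others, so their separate values are uncertain.

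Many genes of a second list, of mucosal defence proteins, fell too. Of 23 measured, 12 fell, 2 rose and 9 did not pass, with a median of -1.21, or -1.14 with genes not detected in 1 group at their bounds. Among all tested genes 14.1% were lower. Saa1, an acute-phase protein that epithelial cells make in answer to bacteria, had 8.76, 10.34 and 8.41 in hyperoxia and 13.96, 13.39 and 13.61 in normoxia and fell by 4.48 (standard error 0.41, adjusted p = 1.13e-05). Saa3 fell by 2.70, and Saa2 was at least 2.00-fold lower. The 3 Saa1 values in hyperoxia were all more than a log2 of 3 below those in normoxia. Retnlb, a goblet cell protein that kills bacteria, was detected on none of the hyperoxia arrays and was at least 9.82-fold lower (adjusted p = 5.21e-06), the largest bound among genes that fell. Pglyrp1, a peptidoglycan recognition protein, had 9.67, 9.30 and 8.35 in hyperoxia and 11.73, 12.21 and 12.22 in normoxia and fell by 2.95 (standard error 0.37, adjusted p = 0.000177) on its brightest probe, while its other tested probe gave -0.32 and did not pass. Dmbt1, a scavenger receptor of the mucus that binds bacteria, had 11.16, 11.75 and 10.98 in hyperoxia and 13.14, 13.16 and 13.47 in normoxia and fell by 1.96 (standard error 0.19, adjusted p = 2.54e-05). The study lists Dmbt1 among Paneth cell markers lowered on the same arrays, so its direction is not independent evidence. Lcn2, which withholds iron from bacteria, was at least 2.20-fold lower, and the probe that stood for the inducible nitric oxide synthase Nos2 was not detected on any hyperoxia array (adjusted p = 0.000651).

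The C-type lectins Reg3g and Reg3b did not pass the test. Reg3g had 11.08, 12.54 and 11.93 in hyperoxia and 13.46, 13.58 and 13.17 in normoxia, with no overlap, but its change of -1.55 carried a standard error of 0.97 and did not pass (adjusted p = 0.245). That standard error draws on all 12 arrays, lung included, and the study's own analysis lists Reg3g as significantly lower. Reg3b had 14.48, 14.48 and 14.48 in hyperoxia and 14.13, 14.25 and 14.14 in normoxia and a change of 0.30 (adjusted p = 0.121). The values of Reg3b were among the brightest on the array and lay slightly higher in hyperoxia. With the mean of its tested probes the change of Reg3b was negative and did not pass either. The cathelicidin Camp rose by 1.23 and the protease inhibitor Wfdc2 by 0.88, and Camp had 7.68, 7.07 and 5.91 in hyperoxia against 5.85, 5.38 and 5.74 in normoxia, the nearest values being 5.91 and 5.85.

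**Figure D3:**
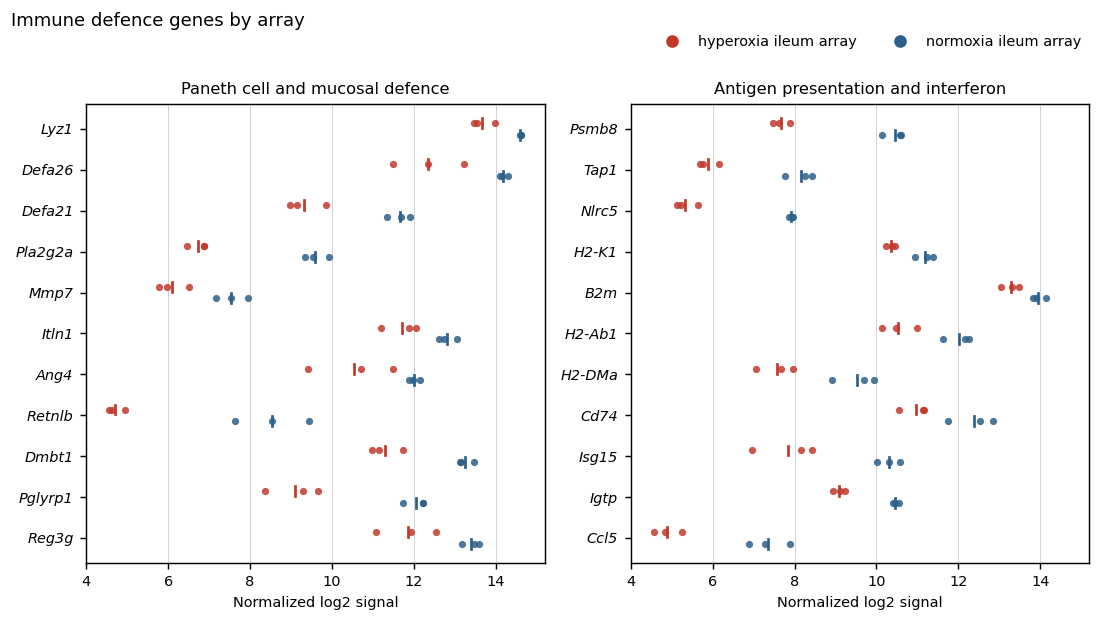
Normalized log2 signal of Paneth cell and mucosal defence genes and of antigen presentation and interferon genes on each of the 3 hyperoxia and 3 normoxia ileum arrays, with a bar at each group's mean. In each of the genes drawn the 3 hyperoxia arrays lay below the 3 normoxia arrays, and Reg3g, whose change of -1.55 did not pass the test, is among them.

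Goblet cell genes were less uniform, with 6 of 19 lower, 2 higher and 11 not passing, against 14.1% lower and 12.7% higher over all tested genes. Only 3 were lower without normoxia replicate 1 or 3, and 4 were lower and none higher without hyperoxia replicate 3. Zg16, a lectin of the mucus layer, had 10.80, 11.08 and 10.08 in hyperoxia and 13.70, 13.70 and 13.45 in normoxia and fell by 2.97 (standard error 0.21, adjusted p = 1.76e-06). Tff3, the trefoil factor of goblet cells, fell by 0.64, and Tff2, a trefoil factor of the stomach and duodenum, was at least 6.67-fold lower (adjusted p = 0.0248), a call lost without hyperoxia replicate 3. The main mucin, Muc2, did not pass the test. Of 18 measured enteroendocrine genes, 7 fell, 2 rose and 9 did not pass. The hormone genes Ghrl, Sst, Pyy, Cck and Gcg fell, with log2 changes of -1.52, -1.41, -1.24, -1.19 and -0.76. Sst, somatostatin, had 9.29, 8.78 and 7.78 in hyperoxia and 10.05, 9.85 and 10.19 in normoxia. Nts, neurotensin, moved the other way, with 10.46, 10.65 and 10.59 in hyperoxia and 9.91, 9.09 and 9.38 in normoxia, and rose by 1.10 (standard error 0.22, adjusted p = 0.00416). Insl5, a hormone of distal enteroendocrine cells, rose by 1.23, with overlapping arrays.

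Of 6 measured tuft cell genes, 2 rose and none fell, against 12.7% higher and 14.1% lower over all tested genes. Sucnr1, the succinate receptor by which tuft cells sense microbial metabolites, had 8.16, 8.73 and 8.01 in hyperoxia and 4.60, 4.82 and 4.71 in normoxia, where no array detected it, and its level was higher by at least 8.15-fold (adjusted p = 9.00e-08), the largest bound among genes that rose. Hpgds, the prostaglandin D synthase of tuft and mast cells, had 7.99, 8.52 and 7.87 in hyperoxia and 6.83, 6.41 and 6.60 in normoxia and rose by 1.51 (standard error 0.25, adjusted p = 0.00146). The tuft cell kinase Dclk1 did not pass, and the defining genes Trpm5, Pou2f3 and Il25 were not detected often enough to be tested. Of 14 measured stem cell genes, 3 fell, none rose and 11, among them Lgr5 and Olfm4, did not pass. Ascl2, a transcription factor of crypt base stem cells, fell by 1.00 and Prom1 fell by 1.32.

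Among ion and fluid transport genes 11 of 20 fell, against 14.1% of all tested genes, with 1 higher, 8 not passing and a median of -0.69. Without hyperoxia replicate 3, 9 fell and none rose. Car4, a carbonic anhydrase of the brush border, was detected on none of the hyperoxia arrays and was at least 4.28-fold lower (adjusted p = 1.49e-06). The chloride channel Clcn2 had 7.52, 7.40 and 6.91 in hyperoxia and 8.93, 9.10 and 9.09 in normoxia and fell by 1.76 (standard error 0.23, adjusted p = 0.000233). Guca2b, uroguanylin, the peptide that opens chloride secretion, had 12.04, 11.80 and 10.98 in hyperoxia and 12.97, 12.87 and 13.02 in normoxia and fell by 1.34. The potassium channel Kcnn4 fell by 1.32, the sodium-hydrogen exchanger Slc9a3 fell by 1.30 and the anion exchanger Slc26a6 fell by 0.85, while the cytosolic carbonic anhydrase Car2 rose by 0.58.

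Of 24 measured junction and keratin genes, 9 fell, 2 rose and 13 did not pass, and 5 fell without normoxia replicate 3. Among all tested genes 14.1% were lower and 12.7% higher. Claudins, the strand proteins of tight junctions, moved in both directions. Cldn3 had 10.06, 9.62 and 8.99 in hyperoxia and 11.42, 11.48 and 11.58 in normoxia and fell by 1.94 (standard error 0.23, adjusted p = 0.000133), Cldn7 fell by 1.19 and Cldn15 fell by 0.76, whereas Cldn8 was at least 2.23-fold higher and was detected on none of the normoxia arrays. The pan-epithelial genes Epcam, Cdh1 and Krt8 did not pass. Of 19 measured epithelial transcription factors, 9 fell, none rose and 10 did not pass, with a median of -0.47, and 4 fell without normoxia replicate 3. Of the intestinal identity factors, Cdx1 fell by 1.22 and Cdx2 fell by 0.52. The vitamin D receptor Vdr fell by 1.18, and Klf4, Klf5, Elf3, Ihh and Creb3l3 fell, with log2 changes of -0.74, -0.65, -0.85, -1.14 and -0.82.

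Genes of antigen presentation fell in most of the cases measured. Of 22 measured genes of MHC class I and peptide loading, 17 fell and 5 did not pass, with none higher and a median of -1.07, against 14.1% lower over all tested genes. Psmb8, a subunit of the immunoproteasome that cuts peptides for class I, had 7.62, 7.89 and 7.48 in hyperoxia and 10.15, 10.60 and 10.59 in normoxia. The partner subunits Psmb9 and Psmb10 fell, with log2 changes of -1.77 and -1.53, as did the activator subunits Psme1 and Psme2, with -1.09 and -1.04. Tap1, which pumps peptides into the endoplasmic reticulum, had 6.16, 5.70 and 5.77 in hyperoxia and 7.77, 8.26 and 8.43 in normoxia and fell by 2.27 (standard error 0.25, adjusted p = 6.43e-05). Nlrc5, the activator of class I transcription, had 5.22, 5.12 and 5.64 in hyperoxia, where 1 array detected it, and 7.93, 7.86 and 7.97 in normoxia. The class I chains H2-K1 and H2-D1 had log2 changes of -0.83 and -0.73, and their light chain B2m fell by 0.68. B2m had 13.47, 13.31 and 13.04 in hyperoxia and 13.82, 13.91 and 14.14 in normoxia, a small change in a bright gene with no overlap. The heavy chains share long stretches of sequence, so a probe can read several of them.

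Of 11 measured MHC class II genes, none rose, 8 fell and 3 missed the threshold, with a median of -1.14. The share lower over all tested genes was 14.1%. H2-Ab1, a class II beta chain, had 10.98, 10.47 and 10.15 in hyperoxia and 11.62, 12.17 and 12.26 in normoxia, Cd74, the invariant chain, had 11.15, 11.16 and 10.56 in hyperoxia and 11.74, 12.54 and 12.85 in normoxia, and H2-DMa, which loads peptides, had 7.96, 7.66 and 7.05 in hyperoxia and 8.92, 9.69 and 9.94 in normoxia. In each the normoxia arrays also differed among themselves, replicate 1 being the lowest. Ciita, the activator of class II transcription, had a change of -0.74 (adjusted p = 0.0541) and did not pass.

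Of 36 measured interferon-induced genes, 16 fell and 20 did not pass, none being higher, with a median of -0.58. The share lower over all tested genes was 14.1%. Ubd, an interferon-induced ubiquitin-like protein, had 6.08, 6.39 and 5.93 in hyperoxia and 9.82, 11.01 and 10.44 in normoxia. Cxcl9, a chemokine that attracts T cells, had 5.81, 5.68 and 5.77 in hyperoxia and 8.87, 8.24 and 8.79 in normoxia and fell by 2.88 (standard error 0.50, adjusted p = 0.00182), and Cxcl10, which shares its receptor, was at least 1.93-fold lower. Isg15, a ubiquitin-like modifier, had 8.15, 8.43 and 6.95 in hyperoxia and 10.57, 10.01 and 10.30 in normoxia and fell by 2.45 (standard error 0.36, adjusted p = 0.000642). Igtp and Irgm2, guanosine triphosphatases that attack vacuoles holding microbes, fell, with log2 changes of -1.37 and -1.20. Batf2, a transcription factor induced by interferon, was at least 3.35-fold lower and was detected on none of the hyperoxia arrays.

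The letters GAAA, any 2 bases and GAAA again, the core bound by interferon regulatory factors, were searched in the same promoter windows on both strands. They were found in 3.99% of 27025 genes and in 15 of 28 tested interferon-induced genes with a promoter (53.57%), and in 5 of the 13 of these that fell (38.46%). Within this list the letters were thus less frequent among the genes that fell than among all those tested. The promoters of 4 genes are printed to set 3 that fell beside 1 that did not pass, with matches on either strand in capitals. This choice does not show the balance in the interferon-induced list, where 5 of the 15 genes that held the letters fell. B2m belongs to the MHC class I list, where the letters stood in 4 of 16 tested genes with a promoter. They stood in 3 of the 13 of these that fell. Isg15 holds 3 matches, Igtp and B2m hold 1 each, and Gbp3, an interferon-induced guanylate-binding protein chosen after its values were seen, holds 2.
Isg15, chr4:156200769-156201068, minus strand: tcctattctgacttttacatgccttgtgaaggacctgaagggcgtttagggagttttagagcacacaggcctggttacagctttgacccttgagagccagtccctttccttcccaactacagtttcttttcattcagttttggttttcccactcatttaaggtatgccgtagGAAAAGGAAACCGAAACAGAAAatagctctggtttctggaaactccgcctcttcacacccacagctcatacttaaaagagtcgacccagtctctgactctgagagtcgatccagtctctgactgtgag
Igtp, chr11:58199306-58199605, plus strand: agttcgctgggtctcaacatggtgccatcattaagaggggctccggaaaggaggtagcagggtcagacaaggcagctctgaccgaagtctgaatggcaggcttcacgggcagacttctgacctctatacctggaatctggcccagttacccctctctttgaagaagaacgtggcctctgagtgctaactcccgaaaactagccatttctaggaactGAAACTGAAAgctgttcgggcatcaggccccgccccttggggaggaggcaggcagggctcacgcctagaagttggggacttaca
B2m, chr2:122147437-122147736, plus strand: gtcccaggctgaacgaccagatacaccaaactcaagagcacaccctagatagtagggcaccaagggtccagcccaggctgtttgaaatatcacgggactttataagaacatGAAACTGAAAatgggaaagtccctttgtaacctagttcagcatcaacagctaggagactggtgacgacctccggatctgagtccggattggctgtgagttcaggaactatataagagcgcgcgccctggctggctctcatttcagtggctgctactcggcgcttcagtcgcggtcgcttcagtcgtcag
Gbp3, chr3:142559794-142560093, plus strand: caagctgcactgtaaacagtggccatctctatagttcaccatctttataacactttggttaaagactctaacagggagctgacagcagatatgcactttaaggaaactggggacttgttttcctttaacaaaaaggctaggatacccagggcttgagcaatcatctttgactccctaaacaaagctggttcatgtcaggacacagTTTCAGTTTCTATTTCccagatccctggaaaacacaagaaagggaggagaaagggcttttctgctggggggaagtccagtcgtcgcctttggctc
Gbp3 had 9.16, 9.27 and 10.44 in hyperoxia and 9.69, 9.62 and 9.71 in normoxia and did not pass (adjusted p = 0.91). Over all tested genes, the letters stood in 5.07% of promoters of genes that fell and in 3.21% of those that rose. Promoters were matched for 9015 of the 11178 tested genes.

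Lymphocyte genes were also called lower. Of 15 measured T cell and natural killer cell genes, 10 fell, 1 rose and 4 did not pass, against 14.1% lower over all tested genes, with a median of -0.94, or -0.81 at the bounds. Without hyperoxia replicate 3, 7 fell, and without normoxia replicate 3, 5 did. Ccl5, a chemokine of activated T cells, was lower by at least 4.34-fold (adjusted p = 0.000138) and was detected on none of the hyperoxia arrays. Cd3e, a signalling chain of the T cell receptor, had 5.04, 4.71 and 4.94 in hyperoxia, where no array detected it, and 6.62, 6.53 and 7.21 in normoxia. Cd27 and Klrd1 fell, with log2 changes of -1.43 and -0.94, and Zap70, detected on none of the hyperoxia arrays, was at least 1.66-fold lower. Prf1, the perforin of cytotoxic cells, rose by 1.07 with overlapping arrays, and Cd8b1 did not pass. Of 13 measured B cell and plasma cell genes, 6 fell and 7 did not pass, with none higher, and 3 fell without normoxia replicate 3. Mzb1, a chaperone of antibody-secreting cells, had 7.40, 7.18 and 6.67 in hyperoxia and 7.87, 8.85 and 9.76 in normoxia and fell by 1.74. Markers of Peyer's patches moved with these genes. Of 10 such markers 6 were measured, 3 fell and 3 did not pass, and their mean log2 signal was 6.77 to 7.08 on hyperoxia arrays and 7.51 to 8.05 on normoxia arrays, while Ms4a1, Cr2 and Gp2 were not detected often enough to be tested. Among the 6 measured, the lymphoid chemokines Ccl19 and Ccl21a had log2 changes of -2.31 and -1.70. Whether the pieces of ileum held different amounts of lymphoid tissue was not tested.

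Genes of myeloid cells and inflammatory signals were called less often than the 26.8% of all tested genes, a difference that was not tested. Of 18 measured macrophage, dendritic and mast cell genes, 2 rose, 1 fell and 15 did not pass. Csf1r, the macrophage growth factor receptor, had 10.34, 10.25 and 10.30 in hyperoxia and 9.53, 9.61 and 9.68 in normoxia and rose by 0.69. Lgmn, a lysosomal protease of macrophages and other cells, rose by 1.00, and the lipopolysaccharide co-receptor Cd14 fell by 1.18. Of 19 measured cytokines and chemokines, 3 fell, none rose and 16 did not pass. Il1b had 6.52, 6.47 and 6.23 in hyperoxia and 7.34, 6.82 and 6.53 in normoxia and a change of -0.49 (adjusted p = 0.322), and Tnf and Il6 were not detected on any ileum array. Tgfb1 fell by 1.20, and the epithelial chemokines Cxcl14 and Cxcl16 had log2 changes of -1.32 and -0.53, the other tested probe of Cxcl16 giving -0.012 (adjusted p = 0.971). Of 13 measured complement genes 2 rose, C2 by 0.90 and the inhibitor Cd55 by 1.00, and none fell.

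Genes of the wall beneath the epithelium were called in shares near or below the 26.8% of all tested genes. Of 28 measured collagen and matrix genes, 3 rose, 4 fell and 21 did not pass, and without hyperoxia replicate 3, 0 rose and 2 fell, and from 1 to 2 fell without hyperoxia replicate 2 or any 1 normoxia array, with none higher without normoxia replicate 3. The proteoglycan Lum rose by 1.30 and the collagen cross-linker Lox by 1.11, whereas Col1a1 fell by 0.91 and Col15a1 fell by 0.89. Grem1, a bone morphogenetic protein antagonist of the fibroblasts around crypts, had 8.13, 8.13 and 8.14 in hyperoxia and 7.56, 7.64 and 7.22 in normoxia and rose by 0.66, and the fetal growth factor Igf2 rose by 0.84. Of 20 measured smooth muscle and nerve genes, 2 rose, 1 fell and 17 did not pass. Des, desmin, rose by 0.96 and Synm, synemin, by 1.34. The mean log2 signal of the 6 muscle-layer markers was 10.47 to 10.71 on hyperoxia arrays and 9.97 to 10.32 on normoxia arrays, with 1 of them, Des, passing the test, and the part of the muscle layer in the other results was not tested. Of 23 measured endothelial genes, 6 fell, 1 rose and 16 did not pass, and 2 fell without hyperoxia replicate 3, 3 without hyperoxia replicate 2 or normoxia replicate 1 and 1 without normoxia replicate 3. Pecam1 fell by 0.74 and the receptor Tek rose by 0.59.

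Nucleotide breakdown held the largest fall among genes detected on all 6 arrays. Of 16 measured genes of purine and nucleotide degradation, 7 fell, 3 rose and 6 did not pass, and 5 rose without hyperoxia replicate 1. The shares over all tested genes were 14.1% lower and 12.7% higher. Dnase1, a secreted enzyme that cuts DNA in the gut lumen, had 5.67, 6.13 and 5.24 in hyperoxia and 10.68, 11.08 and 11.13 in normoxia. Ada, adenosine deaminase, which removes adenosine, had 5.88, 5.55 and 4.85 in hyperoxia, detected on 2 of 3 arrays, and 9.58, 9.08 and 9.07 in normoxia, and fell by 3.81 (standard error 0.27, adjusted p = 1.49e-06). Upp1, uridine phosphorylase, had 6.64, 7.14 and 6.41 in hyperoxia and 9.05, 10.11 and 9.48 in normoxia and fell by 2.82 (standard error 0.25, adjusted p = 9.28e-06), and cytidine deaminase, Cda, fell by 1.80. Ada was the only 1 of 4 measured markers of the proximal small intestine that passed, and the mean log2 signal of these 4 was 10.79 to 10.91 on hyperoxia arrays and 11.51 to 11.74 on normoxia arrays. The median change of these 4 markers was 0.19 and the highest 0.30, so the lower mean in hyperoxia came from Ada. Nt5e, the surface enzyme that makes adenosine, had 11.36, 11.51 and 12.10 in hyperoxia and 9.93, 9.48 and 9.28 in normoxia and rose by 2.09 (standard error 0.21, adjusted p = 3.01e-05). The enzyme that produces extracellular adenosine thus rose while the one that removes adenosine fell.

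Of 21 measured genes of xenobiotic metabolism, 4 rose, 8 fell and 9 did not pass, and 7 rose without hyperoxia replicate 1. The shares over all tested genes, for this and the next lists, were 12.7% higher and 14.1% lower. Cyp2d26 fell by 2.24 and Cyp4f14 fell by 1.94. Aadac, an esterase of liver and gut, had 8.10, 8.57 and 8.77 in hyperoxia and 5.92, 5.99 and 5.56 in normoxia and rose by 2.66 (standard error 0.20, adjusted p = 2.27e-06), and the epoxide hydrolase Ephx2 rose by 1.38. Of 13 measured retinoid genes, 2 rose and 3 fell. Rdh7, which oxidizes retinol, fell by 1.43 and Retsat fell by 0.88, while Lrat, which stores retinol as esters, was at least 1.47-fold higher and was detected on none of the normoxia arrays. Of 20 measured metal genes, 2 rose and 5 fell. The zinc importer Slc39a4 fell by 0.94 and the metallothionein Mt1 fell by 0.90, and 3 genes of the list fell without normoxia replicate 2 or 3. Of 13 measured genes of cholesterol synthesis, 4 fell and none rose, of which Lss, lanosterol synthase, fell by 1.02, and 2 fell without hyperoxia replicate 3 or without normoxia replicate 2 or 3. Fatty acid oxidation barely moved, with 1 of 18 higher and 1 lower.

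Genes of respiration, translation and growth were called in shares near those of all tested genes. Of 27 measured respiratory chain genes, 5 fell, 1 rose and 21 did not pass, and from 1 to 9 fell when 1 array was left out. Of 18 ribosomal protein genes 4 fell and none rose, and again from 1 to 9 fell when 1 array was left out. Of 19 genes of HIF targets and glycolysis, 4 fell and 1 rose, and 2 fell without hyperoxia replicate 2 and 1 without normoxia replicate 3. Vegfa rose by 0.67, its other tested probe giving 0.14 (adjusted p = 0.613), a call lost without hyperoxia replicate 3, and the HIF target Car9 fell by 0.83, both with overlapping arrays. Of 24 cell cycle genes, 4 fell and none rose, of which the replication helicase subunit Mcm3 fell by 0.94 and the mitotic kinase Plk1 fell by 0.75, and 1 of the list fell without hyperoxia replicate 3 and none to 2 without 1 of the 3 normoxia arrays.

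Stress responses were not raised together, and over all tested genes 12.7% were higher and 14.1% lower. Of 15 p53 targets, 3 rose and 2 fell, with none higher without normoxia replicate 3, and Cdkn1a, the cell cycle inhibitor p21, had 9.80, 9.89 and 9.27 in hyperoxia and 10.75, 10.93 and 10.94 in normoxia and fell by 1.22 (standard error 0.19, adjusted p = 0.000835). Of 18 genes of the integrated stress response, 6 fell and none rose, and Trib3 fell by 1.18 and Chac1 fell by 0.91. Of 14 endoplasmic reticulum chaperones, 3 fell and 1 rose, with 1 lower without hyperoxia replicate 1 or 3 or normoxia replicate 3, and Calr, calreticulin, fell by 1.36. Of 16 immediate early genes, 3 fell and none rose, and Junb had 9.02, 8.96 and 8.30 in hyperoxia and 9.95, 9.94 and 10.00 in normoxia. Heat shock proteins went the other way, with 4 of 15 higher and 1 lower, and Hsph1 rose by 0.99, while 2 rose without normoxia replicate 3. Of 12 circadian clock genes, 3 rose and none fell, Per2 with 11.81, 11.49 and 11.53 in hyperoxia and 10.93, 10.73 and 10.65 in normoxia and Clock with 10.75, 10.81 and 11.49 in hyperoxia and 10.34, 10.15 and 10.03 in normoxia. The sampling times of day of the groups are not given in the sources used here. Of 24 splicing and nuclear RNA-binding genes, 8 rose, 1 fell and 15 did not pass, with a median of 0.50. Srsf5 had 11.98, 12.23 and 12.97 in hyperoxia and 11.45, 11.28 and 10.80 in normoxia, and replicate 3 was the highest array for it, as it was for Rbm25 and Clk1. Without that array 5 genes of the list rose and the median was 0.31, and without normoxia replicate 3, 4 rose.

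**Figure D4:**
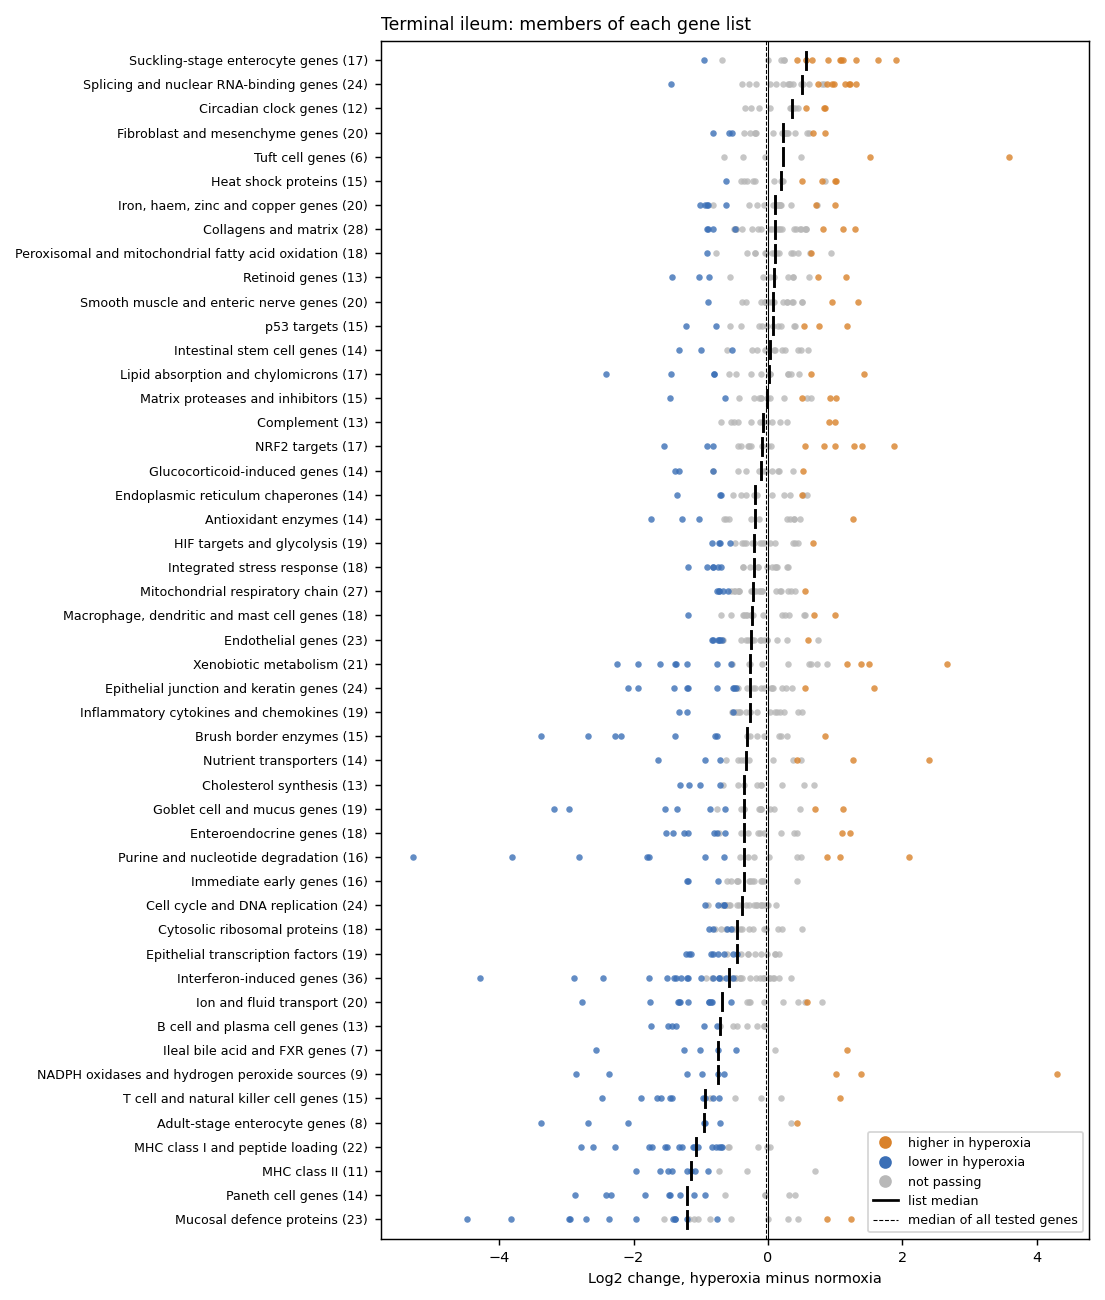
Log2 change, hyperoxia minus normoxia, of every tested member of the 49 gene lists, ordered by the list's median (black bar), with the number of tested members in brackets and the median of all tested genes dashed. Suckling-stage genes had the highest median at 0.56, and mucosal defence proteins (-1.21, or -1.14 at the bounds), Paneth cell genes (-1.20), MHC class II genes (-1.14) and MHC class I genes (-1.07) had the lowest.

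Several of the largest changes fell outside these lists. After Nox4, the next largest rise was that of Fndc5, the precursor of the secreted peptide irisin, with 10.23, 10.14 and 9.35 in hyperoxia and 6.11, 6.61 and 6.76 in normoxia (standard error 0.28, adjusted p = 3.78e-06), and its 4 tested probes rose by 3.42 to 3.81. Serpinb6b, an intracellular protease inhibitor, had 9.02, 8.94 and 9.74 in hyperoxia and 6.60, 6.42 and 6.66 in normoxia, and Gulp1, an adaptor for the uptake of dying cells, had 7.47, 7.97 and 9.22 in hyperoxia and 5.32, 5.39 and 6.31 in normoxia. The homogentisate dioxygenase Hgd, an enzyme of tyrosine breakdown, rose by 2.41, the receptor tyrosine kinase Ros1 by 2.47, the leucine-rich repeat protein Lrrn1 by 2.48 and Hapln1, a link protein of hyaluronan matrix, by 2.35. ND4L, a subunit of complex I encoded in mitochondrial DNA, had 9.75, 10.56 and 11.98 in hyperoxia and 8.27, 8.79 and 7.69 in normoxia, so that replicate 3 lay far above the others. Hyal5 and Radx rose by 2.44 and 2.29. Among falls, Serpina10, a secreted inhibitor of coagulation factors, had 5.86, 6.03 and 5.55 in hyperoxia and 9.32, 9.38 and 8.97 in normoxia, Susd2, a membrane protein, had 6.71, 6.81 and 5.91 in hyperoxia and 9.33, 9.39 and 9.46 in normoxia, and Ptk6, a kinase of differentiating epithelium, had 5.79, 5.82 and 6.38 in hyperoxia and 8.93, 9.19 and 8.35 in normoxia. Genes with overlapping groups were left out when the largest changes were chosen, so the absence of overlap here follows from that choice. The groups did not overlap in 40.1% of all tested genes. 

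**Figure D5:**
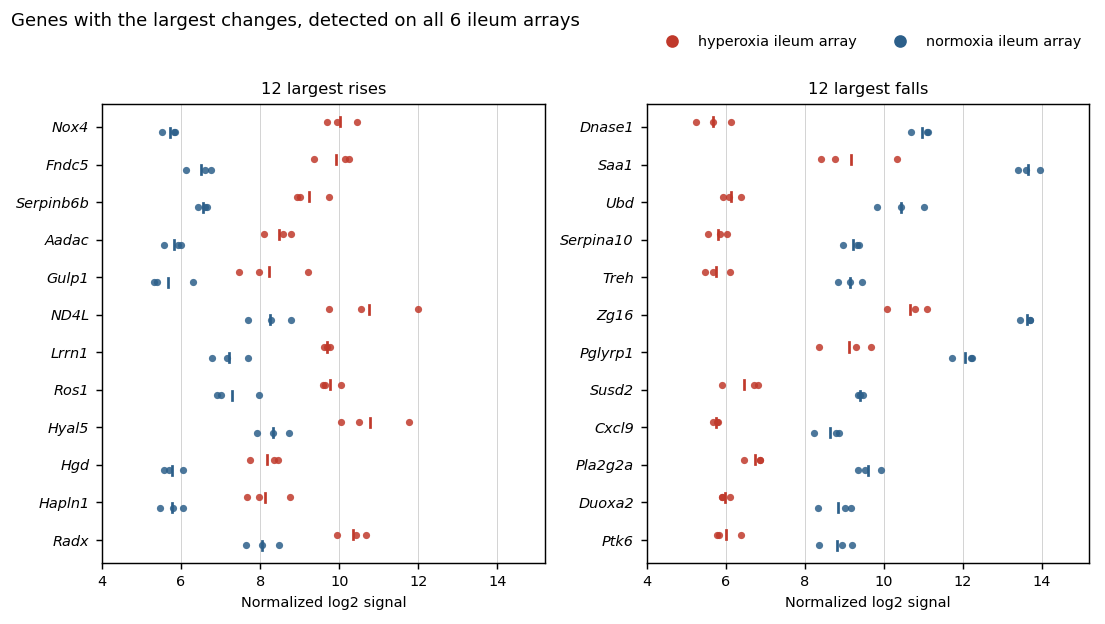
Normalized log2 signal on each ileum array of the 12 genes with the largest rises and the 12 with the largest falls, with a bar at each group's mean. The genes were chosen among called ones detected on all 6 arrays whose groups did not overlap. Nox4 changed by 4.30 and Dnase1 fell by 5.28, and hyperoxia replicate 3 was the highest array for Gulp1, ND4L and Hyal5.

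Of 64 tested genes detected on none of the normoxia arrays, 43 were called, and of 62 detected on none of the hyperoxia arrays, 54 were called. A gene of either kind entered the test only through detection on all 3 arrays of the other group. Its group of genes was therefore favoured by the filter to be called more often than the 26.8% of all tested genes. Beside Sucnr1 and Cldn8, the largest bounds upward were those of Sun3 with at least 3.41-fold, Atl1, an atlastin that shapes the endoplasmic reticulum, with 3.04-fold, the annexin Anxa8 with 2.85-fold and the gamma-secretase subunit Aph1c with 2.51-fold. Beside Retnlb, Tff2, Ccl5, Car4, Duox2 and Batf2, the largest bounds downward were those of the sugar transporter family gene Slc5a4b with at least 2.63-fold and the acute-phase serpin Serpina3n with 2.44-fold. Each bound sets the bright group's mean against the higher of the lowest detected signal and the probe's own signal on each array of the other group.

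The lung arrays of the same series allowed the change in the ileum to be tested against that in the lung. The difference between tissues was tested for the 6 largest rises and 6 largest falls among genes tested in both. These were again drawn from called genes whose ileum groups did not overlap. Nox4 had a change of 4.30 in the ileum and 0.16 in the lung, a difference of 4.14 (standard error 0.34, adjusted p = 6.87e-06). Saa3 fell by 2.70 in the ileum and had a change of 3.80 in the lung, and the difference was -6.50 (standard error 0.85, adjusted p = 0.000249). The sign of the change in this acute-phase gene was therefore opposite in the tissues. The changes of Susd2, Upp1, Pglyrp1, Psmb8 and Cxcl9 were also lower in the ileum than in the lung, and those of Fndc5, Gulp1 and Serpinb6b were higher. Lrrn1 had a change of 2.48 in the ileum and 2.06 in the lung, and the difference of 0.43 did not pass (adjusted p = 0.349), nor did that of ND4L, 1.79 (adjusted p = 0.0636).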

How the data were processed

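RNA of terminal ileum and lung was read on 12 arrays, and the 6 ileum arrays are described here. The deposited intensity of a probe is the mean over its beads as GenomeStudio 2011.1 gives it, before any background subtraction or normalization. Beside it the authors deposited a detection p-value, which sets the probe against negative controls of the same array. A second deposited table holds background-subtracted, normalized intensities by a method not stated in the sources read here, which served only as an alternative.

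The neqc function of limma 3.58.1 (R 4.3.3) corrected the background, quantile-normalized the 12 arrays together and took log2, with an offset of 16. Quantile normalization hides a change common to most genes. Of 45281 probes, 34885 carried a single gene symbol, 18 carried several and 10378 carried none. Symbols of 34807 probes were updated through their gene identifier. Probes entered the test if their detection p-value was below 0.05 on 3 or more of the 6 ileum arrays, and the brightest such probe stood for its gene.

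Group means of the 4 combinations of tissue and exposure were fitted by limma to all 12 arrays, p-values were adjusted over 11178 genes by Benjamini-Hochberg, and an adjusted p under 0.05 counted as a call. All adjusted p-values come from limma. No exact test was made, as its smallest p for 3 arrays against 3 is 0.1. The fitting code was also run on simulated data with known changes, which checks the code and not these results. The genes described and the 49 gene lists were chosen with earlier results of these data known. Named genes include the 12 largest rises and falls among called genes detected on all 6 arrays whose exposure groups did not overlap. The others are the 8 largest bounds each way, up to 6 genes a list by their moderated statistic (more where a whole list is described) and genes the study names. Predicted genes were left out. Ccl19 and Ccl21a come from the marker lists, and Gbp3 was named after its values were seen. Groups that the brightest probe decides, such as defensins, are open to probes that read several copies.

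Same-numbered ileum arrays of the exposure groups did not deviate together (r of -0.25 to -0.02), so a pairing by number was not shown. Deviations from the mean of 3 arrays depend on each other, so this comparison cannot exclude a pairing. Every result was recomputed without background correction, with 75th percentile scaling, with the ileum quantile-normalized alone, with an offset of 50, from the deposited normalized intensities, with 3 other detection filters, with the ileum fitted alone, with the two-way ANOVA of the study's methods, with trend and robust moderation, with array weights, with the replicate number as a block, with 2 other probe choices and without each array in turn. The files used here name no bead chip, so the chip was not tested as a block. Depth has no equivalent on arrays, and the number of arrays limits the precision. Plots were made in Python 3.11.15 with matplotlib 3.10.9.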

Additional observations from a re-analysis of the deposited data

Results flagged for a closer look

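The change under hyperoxia differed between ileum and lung, by a test of the difference itself in limma, for 10 of the 12 genes tested. The difference, ileum minus lung on the log2 scale, was 4.14 for Nox4, 4.29 for Fndc5, 2.90 for Gulp1 and 2.47 for Serpinb6b, all of which rose in the ileum. It was -6.50 for Saa3, -3.70 for Susd2, -3.14 for Upp1, -3.01 for Pglyrp1, -2.22 for Psmb8 and -2.03 for Cxcl9. Saa3 is the only 1 of the 10 with a called rise in the lung (log2 change 3.80) and a called fall in the ileum (-2.70). Fndc5 had a called fall in the lung (-0.88) and a called rise in the ileum (3.42). These genes were chosen for large changes in the ileum, so a difference in the direction of the ileal change is favoured by the choice. Of all 10197 genes tested in both tissues, 2733 (26.8%) differed between them. No ileum group held enough arrays for a test of single outlying arrays.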

How the results depend on the processing

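The 2995 called genes became 1465 with the 6 ileum arrays fitted alone (660 higher and 805 lower) and 4673 with array weights (2289 higher and 2384 lower). Leaving out 1 array gave 1435 to 3624 called genes, 668 to 1659 of them higher and 767 to 1965 lower, with the lowest counts without normoxia replicate 3. The cause was not tested. The share of higher genes among called ones was 41.7% with 75th percentile scaling and 45.1% to 51.6% in the other alternatives. Changes of at least 2-fold numbered 939, against 328 with no background correction and 561 with an offset of 50, both of which shrink changes of dim probes by construction, and 553 to 1455 when 1 array was left out. With the replicate number as a block, 2013 genes were called (925 higher and 1088 lower), and a pairing by number was neither shown nor excluded. The 10 other alternatives gave counts within 1.5 times of all 4 of these.

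Of 208 called genes named in the text, 144 were called in all 21 alternatives, and none of the 208 turned its direction. Calls lost per left-out array ranged from 8 without hyperoxia replicate 1 to 52 without normoxia replicate 3. The 28 calls lost without hyperoxia replicate 3 include Hmox1 (adjusted p = 0.123), Slc51a (adjusted p = 0.0632), Tff2 (adjusted p = 0.0623), Dab2 (adjusted p = 0.0591) and H2-D1 (adjusted p = 0.0583). With the mean of all tested probes in place of the brightest, Defa3 turned to -0.40 and Reg3b to -0.42, and Gbp3 ranged from -0.46 to 0.18 when 1 array was left out, with 0.18 and 0.12 without hyperoxia replicate 1 and 2, none of which passed the test in either direction. Counts of falls for brush border, adult-stage, Paneth, mucosal defence, enteroendocrine, ion transport, MHC class I, MHC class II, interferon-induced and nucleotide degradation genes, and of rises for suckling-stage genes, stayed within 1.5 times when any 1 array was left out. The probe with the largest variance lost the calls of Gsta1, Cxcl16, Csf1r, H2-K1, Lamp2, Slc51a, Slc5a9, Tsc22d3 and Vegfa. Signal over background was lower on every hyperoxia ileum array than on every normoxia one, and its part in these results was not tested.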

Other observations

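Further gene groups were measured. Of 20 fibroblast and mesenchyme genes, 2 rose, 3 fell and 15 did not pass, with a median of 0.22, against 12.7% higher and 14.1% lower over all tested genes. Without hyperoxia replicate 3 none of them fell and the median was 0.11, none fell or rose without normoxia replicate 3, and 1 fell without hyperoxia replicate 2 or normoxia replicate 1 or 2. Of 15 matrix proteases and inhibitors, 3 rose and 2 fell, with 1 higher without normoxia replicate 3, and the collagenase Mmp13 rose by 0.93 and the inhibitor Timp3 by 1.01. Of 14 glucocorticoid-induced genes, 1 rose, 3 fell and 10 did not pass, with log2 changes of -0.82 for Ddit4, -1.32 for Nfkbia and 0.53 for Tsc22d3.

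Probes of the same gene did not always move alike. Of 4107 genes with several tested probes, 1141 were called on their brightest probe. All tested probes were called in the same direction in 444 of these, and in 24 at least 1 other probe was called in the opposite direction. Srsf11 of the splicing list and Slc11a2, the intestinal iron transporter, are among the 24. Between the dimmest and the brightest probe of a gene the median difference in log2 change was -0.03.

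The direction of change had little relation to brightness. With the tested genes ranked by mean signal and cut into 4 equal groups, the dimmest had 250 higher and 292 lower calls (46.1% higher) and the brightest had 386 higher and 384 lower (50.1% higher). Erythroid markers had a mean log2 signal of 9.03 to 9.79 on hyperoxia arrays and 8.57 to 9.04 on normoxia arrays, with 1 of 4 measured markers called, Hba-a1, higher by 0.44.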
